A study of Mus musculus with 22 samples.

Results

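The genes described here are 34 members of the ATF4, serine, one-carbon and amino acid transport programme. They were chosen by symbol, with earlier results of these data known. All 34 were listed in each of the 3 tables of normalised read counts, which held 37669 genes for large Pro-B cells, 37851 for large Pre-B cells and 26095 for small Pre-B cells. ATF4 is a transcription factor whose mRNA is translated preferentially when the initiation factor eIF2 is phosphorylated by a kinase that senses amino acid shortage, unfolded protein, haem shortage or double-stranded RNA. Its known targets include enzymes that make serine, asparagine and proline, mitochondrial enzymes of the folate cycle and membrane carriers that import amino acids. Serine gives its side chain carbon to folate, and the carbon carried by folate is used to build purines and thymidylate, which dividing lymphocyte precursors need in quantity.

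Libraries were made from precursors of B cells, sorted out of adult mouse bone marrow. tet-LIN28B mice carry 1 Col1a tetO-LIN28B allele, in which doxycycline induces a Flag-tagged human LIN28B cDNA from the Col1a locus, together with Rosa26 rtTA*m2, which supplies the doxycycline-dependent activator. Littermate controls were Rosa26 rtTA*m2 heterozygotes, so they carry the activator but not the responder allele. Both genotypes received 10 days of chow with doxycycline at 200 mg/kg, and the RNA-binding protein LIN28B is otherwise characteristic of fetal blood formation. Large Pro-B cells were sampled in 5 tet-LIN28B and 4 control libraries, large Pre-B cells in 4 and 3, and small Pre-B cells in 3 and 3. The 22 libraries represent 15 mice. Both large stages were sampled from the same animal in 7 mice, while the small Pre-B mice were a separate set. Small Pro-B cells were left out of the sort gate, and sequencing used 2 instruments, with no record here of which library ran on which.

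Total reads per library ranged over 13.9 M to 23.3 M in large Pro-B, 19.9 M to 30.4 M in large Pre-B and 32 M to 51.0 M in small Pre-B cells. The mouse Lin28b row, to which reads of the human cDNA may also map, had 57.0 to 232, 41.9 to 175 and 81.9 to 230 normalised counts in the tet-LIN28B libraries of the 3 successive stages, against 4.63 to 10.2, 9.92 to 28.8 and 0 in the controls, with no overlap at any stage. Cycling markers set the small stage apart, with a summed level of 571 to 735 CPM (the reads of a gene scaled to a library total of 1000000) in tet-LIN28B and 511 to 639 in control small Pre-B libraries, against 11864 to 17336 in tet-LIN28B and 10439 to 18164 in control libraries of the large stages. All 10 B lineage markers were detected above the filter in each stage. The 3 pro-B markers summed to 1373 to 2134 CPM in tet-LIN28B and 1146 to 3452 in control large Pro-B libraries, against 301 to 393 and 239 to 532 in large Pre-B libraries. Myeloid markers summed to 11.3 to 19.96 CPM in tet-LIN28B and 18.1 to 384 in control large Pre-B libraries, the highest being control replicate 3, which also had the smallest normalised total of its table and stood apart from the rest.

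ATF4 binds DNA as a dimer with a C/EBP protein, and the joint element is known as a C/EBP-ATF response element. Its letters TGATGNAA were searched on both strands of the RefSeq promoter windows of GRCm38.p6, each from 250 bases before to 50 bases after a gene's annotated start. Of the 34 members, 30 had such a window, and the letters occurred in 9 of these (30%), against 4.51% of 27025 genes with a window. The list was drawn up around ATF4 and its known targets, so this contrast describes the list and is no test. The 9 were Atf3, Chac1, Trib3, Slc7a11, Asns, Nupr1, Slc1a4, Pycr1 and Got1. The sites of the 7 that could be tested in small Pre-B cells are printed below because the results return to them, each in 30 bases along the gene's own strand, with the matching letters in capitals. A match describes the letters only, and occupancy by ATF4 was not measured.
Chac1, chr2:119351038-119351067 (+): cttccctgccgTTGCATCActcctgccagg
Trib3, chr2:152344028-152344057 (-): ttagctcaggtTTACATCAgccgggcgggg
Asns, chr6:7693214-7693243 (-): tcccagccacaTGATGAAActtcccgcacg
Slc7a11, chr3:50443661-50443690 (-): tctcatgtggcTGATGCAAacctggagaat
Slc7a11, chr3:50443642-50443671 (-): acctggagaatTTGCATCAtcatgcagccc
Slc1a4, chr11:20332699-20332728 (-): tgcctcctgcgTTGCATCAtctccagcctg
Pycr1, chr11:120643833-120643862 (-): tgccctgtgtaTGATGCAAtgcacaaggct
Got1, chr19:43524689-43524718 (-): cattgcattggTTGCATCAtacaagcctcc

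The 2 Slc7a11 matches read on opposite strands, and the Trib3 match lies after the RefSeq start that set its window rather than before it. The E-box letters CACGTG, bound by MYC and other basic helix-loop-helix factors, occurred in 2 of the 30 member windows (6.67%), against 8.09% of all genes with a window. One of these was Aldh18a1, whose match is shown with the same conventions.
Aldh18a1, chr19:40588505-40588534 (-): ggagggggccgcCACGTGgagcgtgggcgc

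Whether LIN28B induction moved these genes was asked separately within each stage, by limma on log2(normalised count + 1) over all genes that reached 10 normalised counts in enough libraries to fill the smaller genotype group, with Benjamini-Hochberg adjustment and a threshold of 0.05. Fold changes are tet-LIN28B over control on that scale, so those of low genes are understated. Bulk values cannot tell fewer cells of a kind from less RNA in each cell.

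In small Pre-B cells 11 members were higher and 1 was lower in tet-LIN28B mice, of 31 that could be tested. The 11 include Chac1, the 1 stress effector counted below, which passed the filter through its tet-LIN28B libraries alone. Over all 14664 genes tested in that stage 14.4% passed, 7.34% higher and 7.03% lower. The members' median log2 fold change was 0.31, with 23 of 31 above 0, while the median of all genes was -0.0024 (49.7% above 0). Because the members were chosen with earlier results of these data known, these contrasts with all genes are a description and no test. By role, 4 of 5 one-carbon enzymes, 2 of 3 serine synthesis enzymes, 2 of 5 other enzymes of amino acid synthesis, 1 of 4 stress effectors and 3 of 9 transporters passed, but none of the 5 transcription factors tested by limma (1 of them, Atf4, had an unadjusted p under 0.05). Atf3 and Nupr1 were too low to test and Stc2 was listed at 0 in all 6 libraries.

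The one-carbon enzymes were the group with the highest share of calls. Mthfd2 (ENSMUSG00000005667.8, chr6:83305691-83325908 of GRCm38, as for all gene positions here), the mitochondrial methylenetetrahydrofolate dehydrogenase of proliferating cells, had 1207, 972 and 918 normalised counts in tet-LIN28B libraries, against 423, 533 and 536 in control libraries. Every tet-LIN28B library lay well above every control library, and the log2 fold change was 1.05 ± 0.14 (SE, limma adjusted p = 0.00129). Shmt2 (ENSMUSG00000025403.5, chr10:127517123-127522444), which transfers the carbon of serine to folate inside mitochondria, had 3237, 3422 and 3004 normalised counts in tet-LIN28B libraries, against 2048, 1944 and 2068 in controls. Its log2 fold change of 0.67 ± 0.08 had the smallest adjusted p of all members (limma, 0.00053).

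Shmt1 (ENSMUSG00000020534.14, chr11:60788104-60811718), the cytosolic counterpart, was a low transcript at this stage, with 221, 278 and 282 normalised counts in tet-LIN28B libraries, against 152, 143 and 115 in controls. The genotypes did not overlap and the log2 fold change was 0.93 ± 0.19 (limma adjusted p = 0.0104). Mthfd1 (ENSMUSG00000021048.7, chr12:76255298-76319803), the trifunctional cytosolic enzyme that interconverts carbon-bearing folates, had 448, 520 and 403 normalised counts in tet-LIN28B libraries, against 248, 305 and 326 in controls. It was higher by 0.64 ± 0.16 on the log2 scale (limma adjusted p = 0.0229), but this call was lost without control replicate 1 or 2 or without tet-LIN28B replicate 1 or 2 (adjusted p = 0.0531 to 0.0875). Mthfd1l, the mitochondrial enzyme that releases formate, was the exception in the group, with 364, 579 and 528 normalised counts in tet-LIN28B libraries, against 386, 574 and 434 in controls. Its log2 fold change was 0.07 ± 0.20, with a 95% interval of -0.37 to 0.51.

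**Figure D1:**
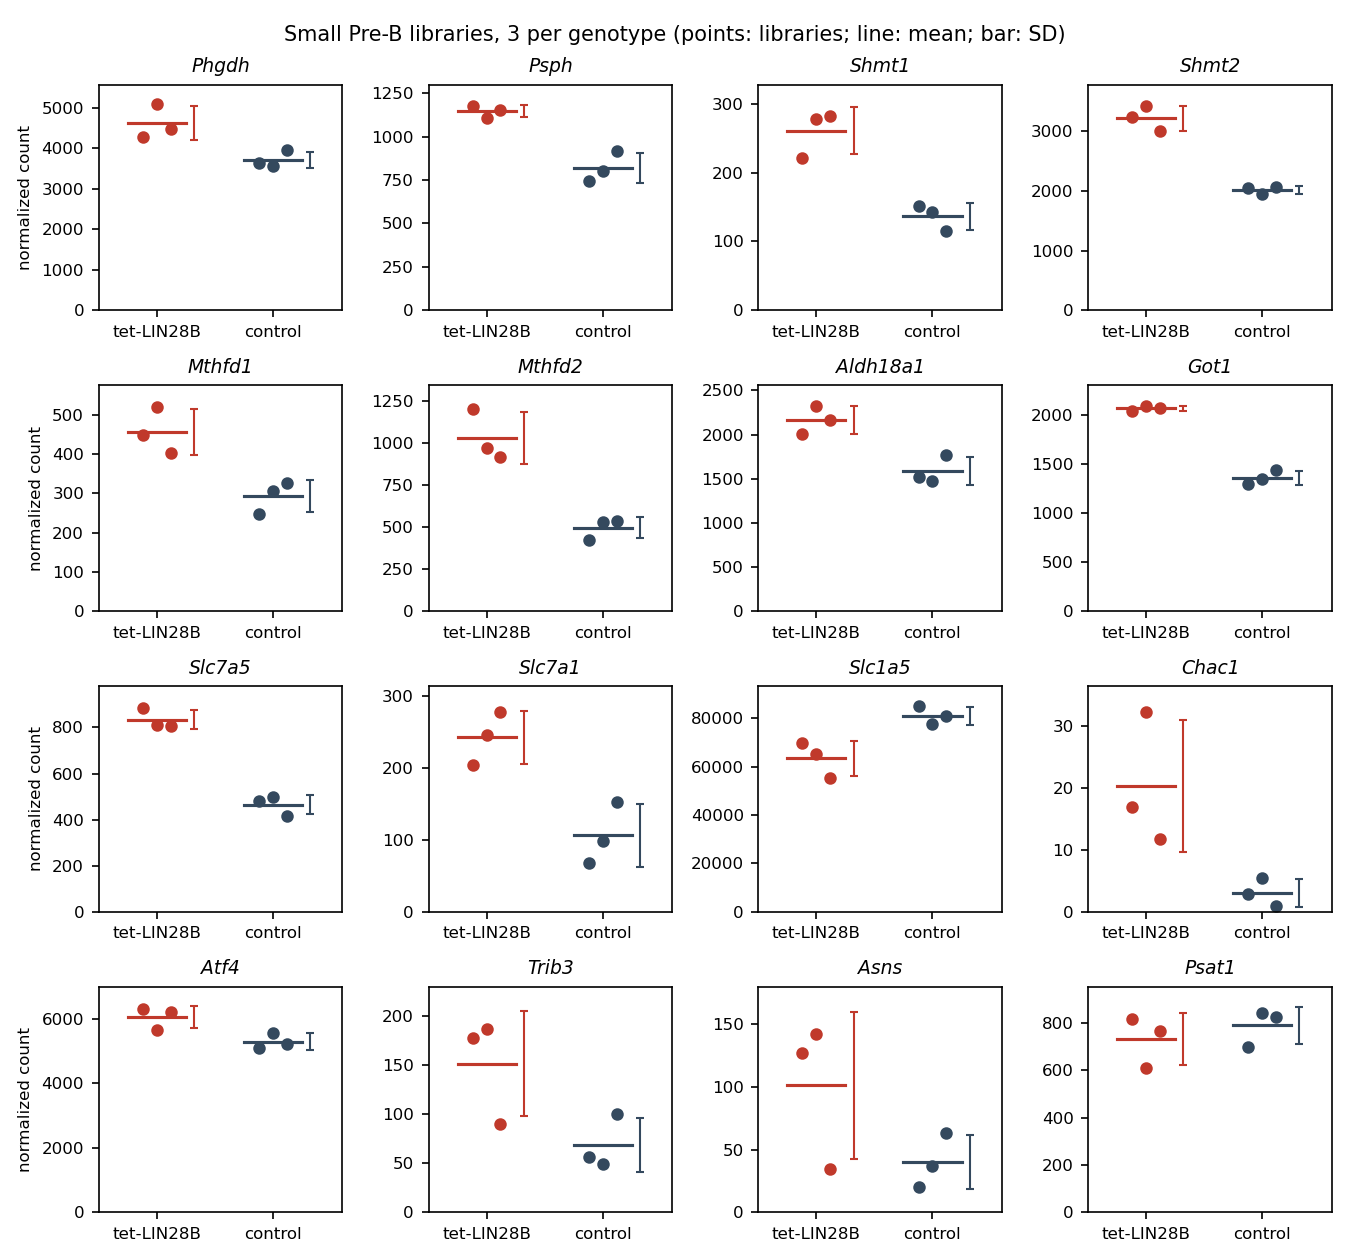
Normalised read counts (y axes, from 0) of 16 members in small Pre-B libraries, with the 3 tet-LIN28B libraries left of the 3 control libraries in each panel; points are libraries, lines are means and bars are SDs. The first 12 panels hold the members that passed the test, all without overlap between genotypes; the last 4 hold Atf4, Trib3, Asns and Psat1, which did not pass.

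Serine synthesis runs from 3-phosphoglycerate through Phgdh, Psat1 and Psph, and the first and last of these steps passed the test. Phgdh (ENSMUSG00000053398.11, chr3:98313170-98339990), the first enzyme, had 4276, 5077 and 4467 normalised counts in tet-LIN28B libraries, against 3642, 3564 and 3940 in controls. It was higher by 0.31 ± 0.08 on the log2 scale (limma adjusted p = 0.0307), a call that was lost when any control library or tet-LIN28B replicate 2 was left out (adjusted p = 0.0516 to 0.108). Psph (ENSMUSG00000029446.14, chr5:129765558-129787449), the phosphatase of the last step, had 1176, 1109 and 1155 normalised counts in tet-LIN28B libraries, against 742, 800 and 915 in controls. The log2 fold change was 0.49 ± 0.10 (limma adjusted p = 0.012, and 0.0521 without control replicate 1), and 10.4% of its exonic bases overlap Cct6a on the other strand, which these unstranded libraries cannot separate. Psat1, the transaminase between them, had 816, 609 and 767 normalised counts in tet-LIN28B libraries, against 697, 842 and 826 in controls, and its log2 fold change was -0.12 ± 0.13 (95% interval -0.41 to 0.18).

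Among the other enzymes of amino acid synthesis, Got1 (ENSMUSG00000025190.13, chr19:43499752-43524605), the cytosolic aspartate aminotransferase, had the most even values. It had 2042, 2093 and 2076 normalised counts in tet-LIN28B libraries, against 1297 to 1436 in controls, a log2 fold change of 0.60 ± 0.08 (limma adjusted p = 0.00104). Aldh18a1 (ENSMUSG00000025007.13, chr19:40550257-40588463), which starts proline synthesis from glutamate, had 2006, 2324 and 2162 normalised counts in tet-LIN28B libraries, against 1518, 1469 and 1768 in controls. It was higher by 0.45 ± 0.10 on the log2 scale (limma adjusted p = 0.0123), and the call was lost without control replicate 1 or 2 (0.0539 and 0.0524). Asns, asparagine synthetase and a classical ATF4 target, had 127, 142 and 34.4 normalised counts in tet-LIN28B libraries, against 20.5, 36.8 and 62.9 in controls. Replicate 3 of tet-LIN28B lay within the control range, the log2 fold change of 1.21 ± 0.56 did not pass (limma adjusted p = 0.179), and without that library it was 1.86 (adjusted p = 0.0191).

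Pycr1, which completes proline synthesis, had 67.6, 84.0 and 54.3 normalised counts in tet-LIN28B libraries, against 23.3, 41.1 and 63.9 in controls, and did not pass (log2 fold change 0.76 ± 0.38, limma adjusted p = 0.223). Cth, which makes cysteine from cystathionine, was near the limit of detection, with 13.6 to 37.3 normalised counts in tet-LIN28B libraries and 32.6 to 34.8 in controls.

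Of the 9 transporters 2 were higher and 1 was lower. Slc7a5 (ENSMUSG00000040010.10, chr8:121881150-121907694), the light chain of the LAT1 carrier for leucine and other large neutral amino acids, had 884, 811 and 808 normalised counts in tet-LIN28B libraries, against 482, 496 and 417 in controls. It was higher by 0.84 ± 0.11 on the log2 scale (limma adjusted p = 0.00135), whereas Slc3a2, the heavy chain that takes LAT1 to the cell surface, had 2296, 2039 and 2277 normalised counts in tet-LIN28B libraries, against 1838, 2314 and 2161 in controls. The log2 fold change of Slc3a2 was 0.07 ± 0.10 (95% interval -0.15 to 0.29). Slc7a1 (ENSMUSG00000041313.14, chr5:148327410-148399904), the carrier for arginine and lysine, had 203, 246 and 278 normalised counts in tet-LIN28B libraries, against 67.0, 98.4 and 153 in controls. It was higher by 1.25 ± 0.28 on the log2 scale (limma adjusted p = 0.0168), and the call was lost without control replicate 1 or 2 (0.0529 and 0.0508).

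Slc1a5 (ENSMUSG00000001918.17, chr7:16781340-16798274), the glutamine and neutral amino acid carrier ASCT2, was the only member that was lower. It had 69528, 65102 and 55322 normalised counts in tet-LIN28B libraries, against 84890, 77365 and 80810 in controls, a log2 fold change of -0.36 ± 0.08 (limma adjusted p = 0.0193), and the call was lost without control replicate 1 or 3 (0.079 and 0.0658). As by far the most abundant member, it set the summed level of the transporters, which was 2332 to 2696 CPM in tet-LIN28B libraries and 2981 to 3205 in controls. Slc7a11, which imports cystine, was low, with 26.1, 39.4 and 43.4 normalised counts in tet-LIN28B libraries, against 58.6, 55.1 and 63.9 in controls. Its libraries did not overlap, but the log2 fold change of -0.72 ± 0.31 did not pass (limma adjusted p = 0.154), and its window holds 2 of the matches printed above.

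The sodium-coupled glutamine carriers Slc38a1 and Slc38a2 and the exchanger Slc7a6 had log2 fold changes of -0.02 ± 0.08, 0.17 ± 0.07 and -0.01 ± 0.11. Slc38a2 passed only without tet-LIN28B replicate 3 (log2 fold change 0.24, adjusted p = 0.0348). Slc1a4, a carrier for alanine and serine, had 164, 77.8 and 64.3 normalised counts in tet-LIN28B libraries, against 30.7, 70.3 and 76.1 in controls, so the genotypes overlapped and the log2 fold change of 0.76 ± 0.43 did not pass.

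Atf4 itself (ENSMUSG00000042406.8, chr15:80255184-80257541) had 6305, 5656 and 6206 normalised counts in tet-LIN28B libraries, against 5088, 5572 and 5222 in controls. Every tet-LIN28B library exceeded every control library on this scale, but not in CPM (158 to 177 in tet-LIN28B libraries, 147 to 161 in controls). The difference did not pass (log2 fold change 0.19 ± 0.07, limma adjusted p = 0.0925), and the mRNA level does not report translation of ATF4. Cebpg, a C/EBP partner of ATF4, was separated in the other direction, with 2337, 2456 and 2568 normalised counts in tet-LIN28B libraries, against 2742, 2700 and 2730 in controls (log2 fold change -0.15 ± 0.07, limma adjusted p = 0.181). Ddit3, which encodes CHOP, had 1883, 1270 and 1262 normalised counts in tet-LIN28B libraries, against 1092, 1340 and 1174 in controls, with only replicate 1 above the control range. Cebpb and Atf5 stayed at or below 131 normalised counts in every library, with log2 fold changes of 0.75 ± 0.40 and 0.15 ± 0.51, and 20.7% of the exonic bases of Cebpb overlap Tmem189 on the other strand.

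Chac1 (ENSMUSG00000027313.3, chr2:119351229-119354381), which degrades glutathione and is a sensitive ATF4 target, had 16.9, 32.1 and 11.8 normalised counts in tet-LIN28B libraries, against 2.79, 5.41 and 0.939 in controls. Chac1 passed the filter through its tet-LIN28B libraries alone, so it entered the test only by being high in that group. Its log2 fold change of 2.44 ± 0.68 (limma adjusted p = 0.0383) is therefore not independent of that selection, and it rests on few reads. The call was lost without control replicate 1 or 3 or without tet-LIN28B replicate 1 or 2 (limma adjusted p = 0.0937 to 0.141). Trib3, a pseudokinase that binds ATF4, had 178, 187 and 90.5 normalised counts in tet-LIN28B libraries, against 56.8, 49.7 and 101 in controls. Replicate 3 of each genotype brought the groups to overlap, and the log2 fold change of 1.12 ± 0.35 did not pass (limma adjusted p = 0.0586), while it did with either of these 2 libraries left out (0.0152 without tet-LIN28B replicate 3 and 0.0403 without control replicate 3). Ddit4, an inhibitor of mTORC1, had 304, 164 and 487 normalised counts in tet-LIN28B libraries, against 487, 529 and 479 in controls, and was lower only without tet-LIN28B replicate 3 (log2 fold change -1.15, adjusted p = 0.0102). Sesn2, a leucine sensor that restrains mTORC1, had 354 to 469 normalised counts in tet-LIN28B libraries and 366 to 391.7 in controls.

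The genotypes did not overlap for 12 members that were higher and 3 that were lower in tet-LIN28B, against 17.7% and 16.2% of all genes. Mthfd2, Shmt1, Shmt2, Slc7a5 and Got1 passed under each of the 15 alternatives tried for them. Without control replicate 1 the count of higher members in small Pre-B cells was 5, without control replicate 2 it was 7, and it was 8 to 14 without one of the other libraries. The counts of all genes called in the same fits are not given here. Whether the members lose calls more readily than other genes was therefore not tested. Of the 7 tested members with the response element letters in the window, 2 were higher (Chac1 and Got1), and the median log2 fold change was 0.76. Of the 20 tested members with a window lacking these letters 8 were higher, and the median was 0.23. This is a description of the members without a test. Chac1, which passed the filter through its tet-LIN28B libraries alone, is among the 2 higher members with the letters and among the 12 without overlap.

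Other marker lists moved with the genotype in the same small Pre-B libraries. Of 16 cycling markers 5 were higher in tet-LIN28B (Birc5, Ccna2, Mki67, Ccnb2 and Ccnb1) and none lower, while the summed levels given above overlapped. The 3 pro-B markers summed to 268 to 342 CPM in tet-LIN28B libraries and 482 to 502 in controls, with Il7r lower. They did not move together: without overlap of the genotypes 1 was higher and 2 were lower, against 17.7% and 16.2% of all genes. The 3 pre-B markers summed to 1051 to 1267 CPM in tet-LIN28B libraries and 1768 to 1791 in controls, with Il2ra and Bach2 lower and Cd2 higher. Of 10 B lineage markers Cd79b was higher and Rag2 and Ebf1 lower, and their sum was 12859 to 13322 CPM in tet-LIN28B libraries and 12324 to 12485 in controls. Of 4 plasma cell markers Xbp1 was higher and Sdc1 and Prdm1 lower, with a sum of 239 to 286 CPM in tet-LIN28B libraries and 322 to 372 in controls.

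Myeloid markers summed to 40.8 to 41.5 CPM in tet-LIN28B libraries and 47.0 to 91.2 in controls with no call among 4 tested. Of 3 erythroid and megakaryocyte markers tested Hbb-bs was higher, with a sum of 2.69 to 3.02 CPM in tet-LIN28B libraries and 1.43 to 2.20 in controls. Of 3 stromal and endothelial markers tested Col1a1 was higher, with sums of 297 to 349 CPM in tet-LIN28B libraries and 339 to 378 in controls. The tetO-LIN28B allele sits at the Col1a locus, and its part in the Col1a1 reads was not tested. T and NK markers summed to no more than 1.31 CPM in any library, with Cd3e at 0 throughout. The part of cell cycle, of the mix of precursor stages and of other cell types in the members' differences was not tested.

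The wider pathway was followed in 6 lists of genes that are not members. In small Pre-B cells 10 of their genes were higher and 7 lower, against the 7.34% and 7.03% of all genes, with 97 of them tested. Eif2ak3, which encodes the eIF2 kinase PERK, had 7235 to 9120 normalised counts in tet-LIN28B libraries and 6247 to 6490 in controls (log2 fold change 0.38 ± 0.08, limma adjusted p = 0.0144), and Eif2s1, the phosphorylated subunit of eIF2, was higher by 0.31 ± 0.08. The other eIF2 kinases had log2 fold changes of 0.04 ± 0.06 (Eif2ak1), 0.14 ± 0.19 (Eif2ak2) and -0.27 ± 0.17 (Eif2ak4, the amino acid sensor GCN2), and none passed. Among the folate and methionine enzymes, Srm (log2 fold change 0.94 ± 0.20), which makes spermidine, and Ahcy (0.62 ± 0.15), which clears S-adenosylhomocysteine, were higher.

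Other higher genes were Bcat1 (1.02 ± 0.20), which transaminates branched-chain amino acids, Ass1 (1.13 ± 0.25), which makes argininosuccinate, the neutral amino acid carrier Slc43a1 (0.69 ± 0.11), the taurine carrier Slc6a6 (0.50 ± 0.09) and the lysosomal scaffold gene Lamtor1 (0.24 ± 0.07). The lower genes included Prodh (-0.82 ± 0.15), which degrades proline, Gclc (-0.52 ± 0.08), the limiting enzyme of glutathione synthesis, the mitochondrial serine carrier Sfxn3 (-0.42 ± 0.08) and the lysosomal arginine sensor Slc38a9 (-0.29 ± 0.06). Tsc2 (-0.36 ± 0.10), Castor2 (-0.45 ± 0.12) and Ahcyl1 (-0.27 ± 0.07) were lower as well, the first of these an inhibitor of mTORC1.

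The calls of Bcat1, Slc43a1, Slc6a6, Prodh, Gclc and Sfxn3 were kept under each of the 15 alternatives tried. Those of 10 others (Eif2ak3, Eif2s1, Srm, Ahcy, Ass1, Lamtor1, Slc38a9, Tsc2, Castor2 and Ahcyl1) were each lost without at least 1 library, with limma adjusted p-values of 0.0508 to 0.157. Tet-LIN28B replicates 1, 2 and 3 accounted for 6, 2 and 3 of these losses, and control replicates 1, 2 and 3 for 8, 6 and 7. Eif2ak4 was lower without tet-LIN28B replicate 2 (adjusted p = 0.0453).

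**Figure D2:**
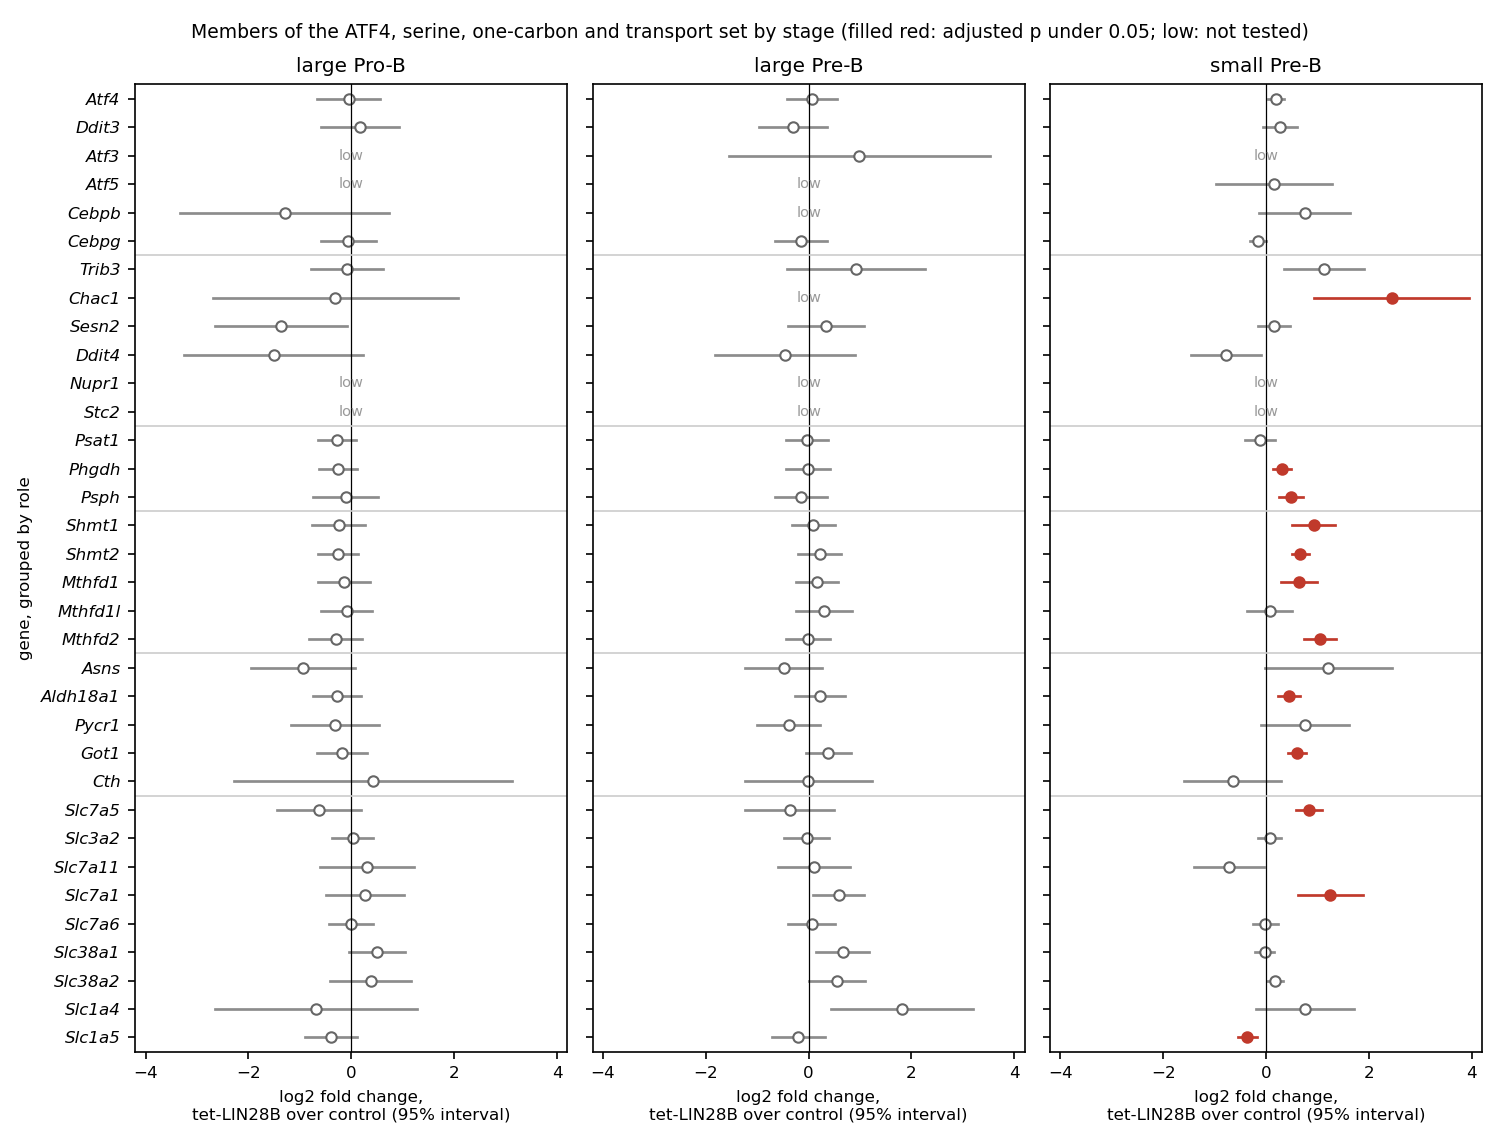
Log2 fold changes of tet-LIN28B over control (x axes) for the 34 members, 1 panel per stage, grouped by role; points are limma estimates, lines are 95% intervals, filled red points have an adjusted p under 0.05 and "low" marks members not tested. Filled points appear in the small Pre-B panel alone, 11 to the right of 0 and Slc1a5 to the left.

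In large Pro-B cells no member passed, of 30 tested, and 0% of 13776 genes did so by limma. At an unadjusted p under 0.05 limma found 1 member and 394 of all genes, edgeR 2 members and 363 of all genes, and DESeq2 3 members and 623. No member was called after adjustment by any of the 3 tools. Only 7 members had a log2 fold change above 0 (52.2% of all genes did), and the median was -0.21, against 0.02 for all genes. Phgdh was the only member whose genotypes did not overlap, in the direction opposite to that in small Pre-B cells: it had 16048, 14656, 10959, 15088 and 14635 normalised counts in tet-LIN28B libraries, against 16705, 17269, 16682 and 17142 in controls (log2 fold change -0.26 ± 0.17, limma adjusted p = 0.999). Of all genes, 0.602% were separated in that direction.

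Some stress genes were uneven among the large Pro-B controls. Sesn2 had 74.1, 53.5, 101, 12.8 and 80.3 normalised counts in tet-LIN28B libraries, against 79.1, 181, 170 and 152 in controls, and its log2 fold change of -1.37 ± 0.59 had an unadjusted p of 0.0381. Without tet-LIN28B replicate 4 it was -0.87. Asns had 124, 216, 175, 68.6 and 228 normalised counts in tet-LIN28B libraries, against 130, 298, 371 and 468 in controls (log2 fold change -0.94 ± 0.46). In both genes control replicate 1 was the control that lay among the tet-LIN28B libraries, the other controls lying above that range. Ddit4 had 10.7 to 122 normalised counts in tet-LIN28B libraries (median 33.6), against 21.5, 131, 118 and 217 in controls, so control replicates 1 and 3 lay within the tet-LIN28B range. Myeloid markers summed to 74.7 to 77.8 CPM in tet-LIN28B and 70.9 to 274 in control libraries of this stage, and their part in these values was not tested.

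The transcription factors and one-carbon enzymes showed no separation at this stage. Atf4 had 1550 to 3415 normalised counts in tet-LIN28B libraries (median 3097) and 1884 to 3795 in controls, and its log2 fold change was -0.05 (95% interval -0.67 to 0.56). Those of the 5 one-carbon enzymes ran from -0.30 for Mthfd2 to -0.09 for Mthfd1l. The largest positive value among the abundant transporters was that of Slc38a1, at 0.50 ± 0.25, with control replicate 1 within the tet-LIN28B range.

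In large Pre-B cells no member of 29 tested passed, while 8 of 14155 genes did (0.0565%). At an unadjusted p under 0.05 limma found 4 members and 930 of all genes, edgeR 3 members and 952 of all genes, and DESeq2 5 members and 1163. Neither edgeR nor DESeq2 called a member after adjustment. The 5 members Slc7a1, Slc38a1, Slc38a2, Slc1a4 and Got1 were higher in every tet-LIN28B library than in any control, where 3.59% of all genes were separated in that direction. All but Got1 are transporters, and no member was separated in the other direction, as 2.87% of all genes were. The median log2 fold change of the members was 0.07, with 16 of 29 above 0 (48.2% of all genes). On the CPM scale, without the deposited scaling, Slc38a2 (245 to 298 in tet-LIN28B libraries, 145 to 253 in controls) and Slc1a4 (2.30 to 7.62 and 0.288 to 2.82) overlapped, while Slc7a1, Slc38a1 and Got1 did not. The Slc7a1 ranges nearly touched, at 22.35 to 32.1 CPM in tet-LIN28B libraries and 16.8 to 22.32 in controls.

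Slc38a1, the sodium-coupled glutamine carrier, had 5875, 5111, 5058 and 4364 normalised counts in tet-LIN28B libraries, against 4193, 3673 and 2135 in controls (log2 fold change 0.66 ± 0.24, limma adjusted p = 0.747). Slc38a2, its relative, had 5008, 4286, 4974 and 4536 normalised counts in tet-LIN28B libraries, against 4084, 4083 and 1973 in controls (0.55 ± 0.25). For both, the lowest value was that of control replicate 3, the library with the myeloid markers, and without it the log2 fold changes were 0.37 and 0.20. Slc7a1 had 539, 442, 383 and 485 normalised counts in tet-LIN28B libraries, against 288, 328 and 304 in controls, and its log2 fold change of 0.58 ± 0.23 was 0.58 without that library as well. Slc1a4 was low, with 128, 40.3, 58.7 and 54.0 normalised counts in tet-LIN28B libraries, against 4.96, 25.3 and 38.4 in controls (log2 fold change 1.82 ± 0.64, and 2.37 without control replicate 3).

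Got1 had 1293, 1199, 1169 and 1391 normalised counts in tet-LIN28B libraries, against 1087, 1026 and 807 in controls, with a log2 fold change of 0.38 ± 0.21, and 0.25 without control replicate 3. Chac1 was listed at 0 in all 3 controls and at 0, 5.18, 5.18 and 3.55 normalised counts in tet-LIN28B libraries, too low to test. Shmt2 and Mthfd2 had log2 fold changes of 0.22 ± 0.20 and -0.01 ± 0.20, and Atf4 of 0.07 ± 0.23. None of the genes of the 6 further pathway lists passed by limma, edgeR or DESeq2 in either large stage, and by limma 2 of 101 in large Pro-B and 9 of 102 in large Pre-B cells had an unadjusted p under 0.05.

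Levels across the stages are given in CPM, as a description, because each stage was normalised in its own table and the animals sampled for small Pre-B cells were different ones. For the 8 enzymes of the serine and one-carbon branch, every small Pre-B library lay below every large-stage library in controls, and in tet-LIN28B cells this held for all but Psph, which averaged 44.9, 28.1 and 32.3 CPM through the 3 stages. Mthfd1 averaged 314, 246 and 12.8 CPM in tet-LIN28B cells through the 3 stages in developmental order, against 332, 237 and 8.46 in controls. Shmt1 averaged 213, 150 and 7.34 CPM in tet-LIN28B cells through the same stages, against 255, 152 and 3.93 in controls. Mthfd2 averaged 128, 120 and 29.0 CPM in tet-LIN28B cells, against 158, 129 and 14.3 in controls, so that the small Pre-B level was 0.24 of the large Pre-B level in tet-LIN28B cells and 0.11 of it in controls.

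Phgdh, the most abundant member per kilobase of exon in large Pro-B cells, averaged 792, 410 and 130 CPM in tet-LIN28B cells, against 943, 448 and 107 in controls. Psat1, which was not called in the small stage, had the same stage pattern, at 309, 247 and 20.6 CPM in tet-LIN28B cells, against 371, 272 and 22.7 in controls. Slc7a5 averaged 79.2, 39.7 and 23.5 CPM in tet-LIN28B cells, against 119, 58.5 and 13.4 in controls. Between the large Pro-B and large Pre-B stages the libraries of Slc7a5 overlapped in both genotypes.

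**Figure D3:**
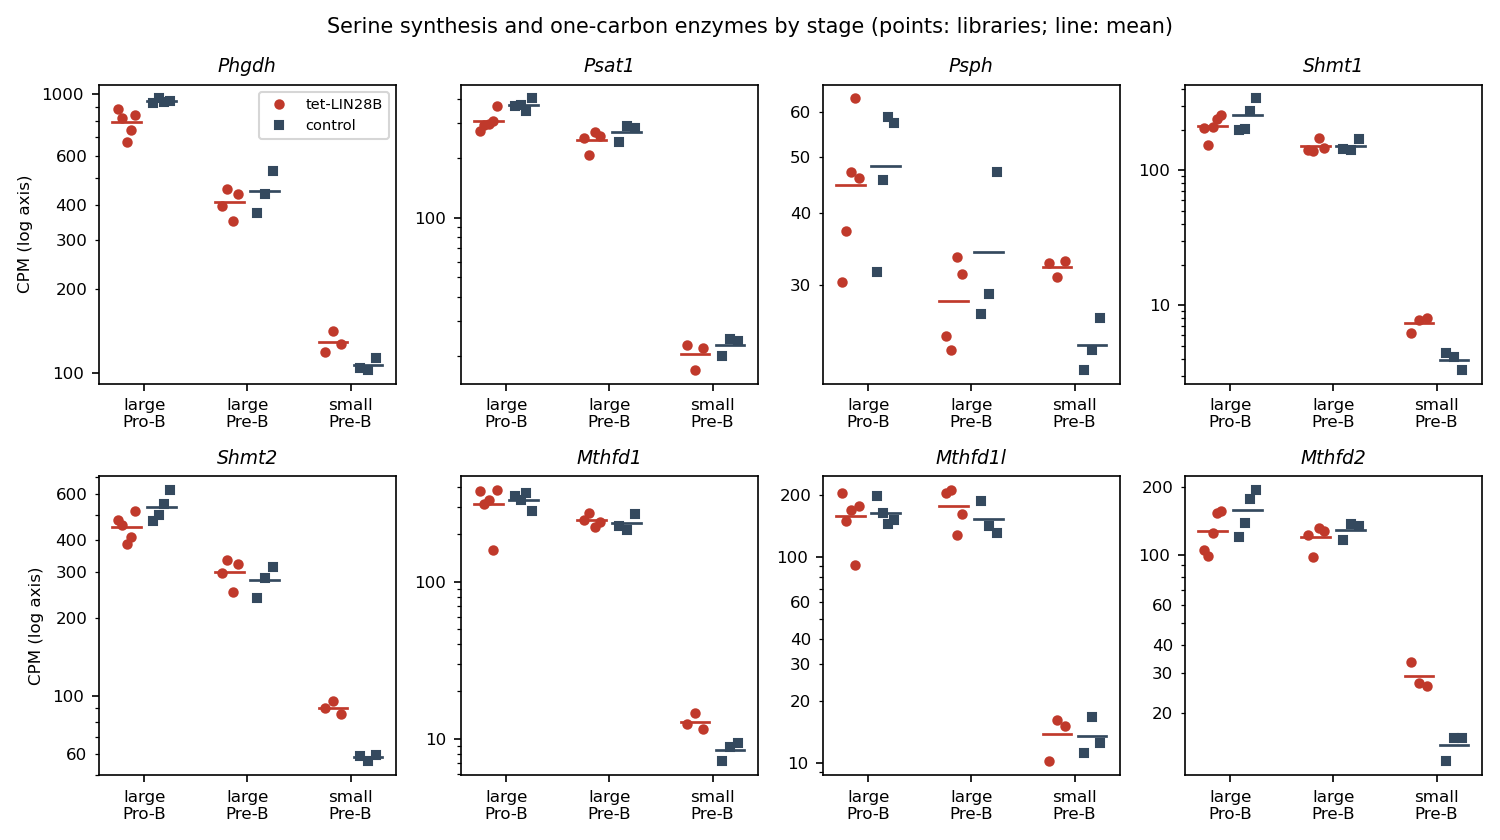
CPM (log axes) of the 3 serine synthesis and 5 one-carbon enzymes by stage, with tet-LIN28B (circles) left of control (squares); points are libraries and lines are means. Except for Psph in tet-LIN28B cells, every small Pre-B library lies below every large-stage library of its genotype.

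In controls the small Pre-B libraries lay below every large-stage library for 17 of the 34 members, above them for 4 and among them for 13, and in tet-LIN28B mice these numbers were 12, 2 and 20. Of the 16208 genes tested in at least 1 stage and listed in all 3 tables, which include 32 members, 16.6% lay below and 28.1% above in tet-LIN28B mice, and 20.5% and 33.7% in controls. Of the 11 members higher in tet-LIN28B small Pre-B cells, 10 were among the 17 that lay below in controls, Chac1 being the exception, and the only lower member, Slc1a5, was among the 4 that lay above. The comparison uses the small Pre-B controls on both sides, so it is a description of where the called members sit. Asns, Psat1, Mthfd1l, Slc3a2, Slc7a11, Slc7a6 and Pycr1 also lay below in controls and did not pass.

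Slc1a5 ran opposite to the enzymes, at 527, 1018 and 1780 CPM in tet-LIN28B cells, against 682, 1238 and 2338 in controls, and was the most abundant member per kilobase of exon in both Pre-B stages. Ddit3 averaged 15.6, 11.7 and 41.4 CPM in tet-LIN28B cells, against 13.4, 15.7 and 34.7 in controls. Atf4 kept nearly the same level, at 160, 169 and 170 CPM in tet-LIN28B cells and 162, 173 and 153 in controls, with overlapping libraries throughout.

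**Figure D4:**
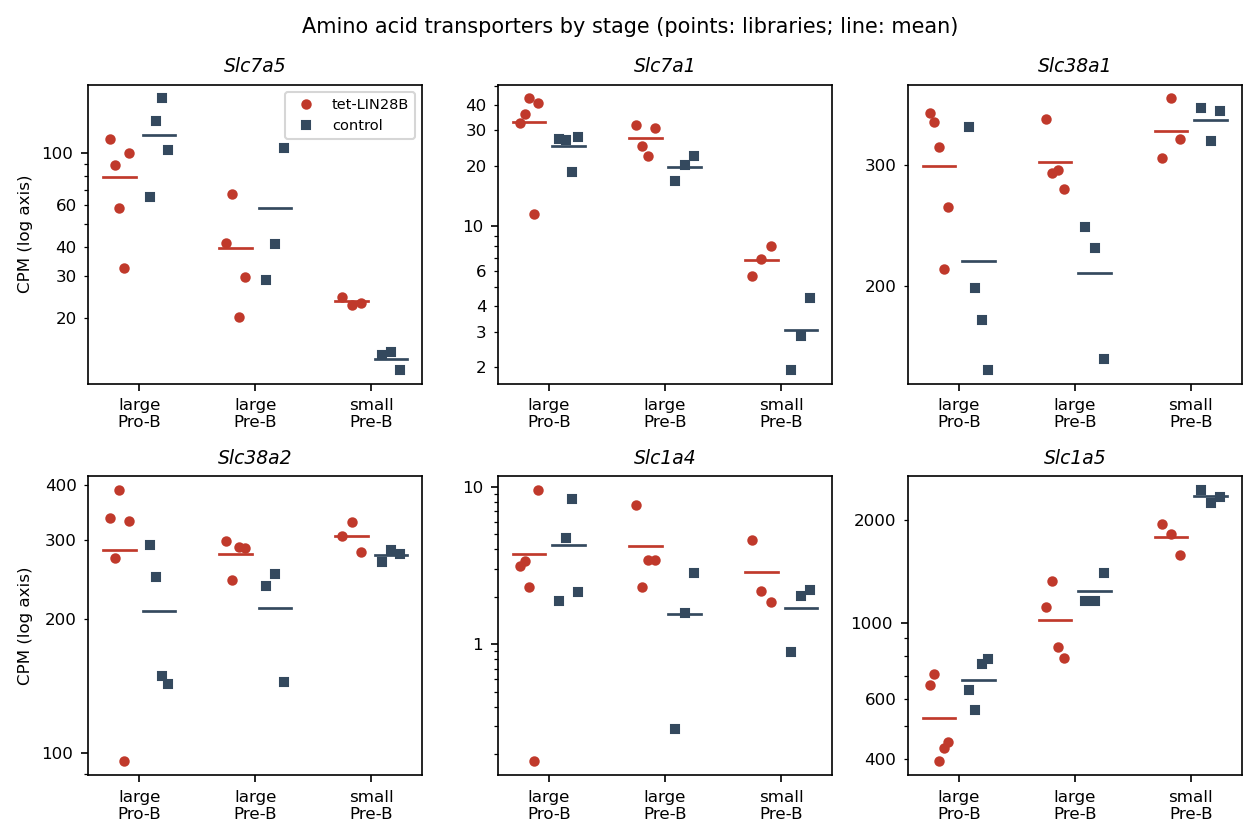
CPM (log axes) of 6 amino acid transporters by stage, with tet-LIN28B (circles) left of control (squares); points are libraries and lines are means. Slc7a5 and Slc7a1 lie higher and Slc1a5 lower in tet-LIN28B small Pre-B libraries, without overlap, while Slc38a2 and Slc1a4 overlap at every stage on this scale.

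Whether the genotype difference itself changed with stage was asked in a single limma model over all 22 libraries and 11830 genes, with the mouse as a random block. All groups share a single estimate of the spread of a gene in this model. The SEs within a stage differed, for Mthfd2 being 0.24 in large Pro-B, 0.20 in large Pre-B and 0.14 in small Pre-B cells. None of the 28 members in this model passed in any of the 3 contrasts between stages, where 0%, 0.0169% and 0.0338% of all genes did for large Pre-B minus large Pro-B, small Pre-B minus large Pre-B and small Pre-B minus large Pro-B. At an unadjusted p under 0.05 limma found 5, 6 and 10 of the 28, against 4.4%, 2.42% and 4.79% of all genes in the same contrasts. The calls in small Pre-B cells are therefore not shown to be particular to that stage. The member with the smallest adjusted p was Mthfd2, whose genotype difference was 1.35 ± 0.29 larger on the log2 scale in small Pre-B than in large Pro-B cells (limma adjusted p = 0.154). Shmt2 followed at 0.93 ± 0.21 (adjusted p = 0.17), Shmt1 at 1.18 ± 0.30 (0.352) and Got1 at 0.79 ± 0.26 (0.706). Asns had the largest of these differences, 2.15 ± 0.74, and Phgdh one of 0.57 ± 0.20, both with a limma adjusted p of 0.757. Without tet-LIN28B replicate 4 of large Pro-B, the stage differences of Mthfd2 (1.47, adjusted p = 0.0192) and Shmt2 (0.94, 0.0495) passed.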

How the data were processed

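Poly-A RNA of sorted mouse B cell precursors was made into SMART-Seq v4 and Nextera XT libraries, which do not mark strand. Per the labels, reads were processed with STAR 2.7.1 and RSEM 1.28 on mm10 and then DESeq2, with an annotation that the sources used here do not name. The authors deposited a table of normalised counts per stage, a signal on the scale of reads divided by each library's size factor. All values returned whole reads when divided by the value of 1 read (100% within 0.1 read), and CPM were computed from these. The authors' DESeq2 comparison tables (fold changes and p-values) were not used.

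Groups and mice were taken from the labels, and replicates are separate mice. Each stage was tested with limma 3.58.1 (R 4.3.3, trend) on log2(normalised count + 1), after requiring 10 normalised counts in as many libraries as the smaller genotype group, with 13776, 14155 and 14664 genes tested. Intervals are 95%. Stage differences used one model with mouse as random block (correlation 0.278). edgeR 4.0.16 and DESeq2 1.42.0 on the recovered reads, other scalings, pseudocounts of 0.1 and 10, no filter and a filter of 50, a replicate block and leaving out each library were alternatives. Of these fits, only limma and edgeR within a stage were tested on simulated data. Gene positions are those of GENCODE M21 on GRCm38 (mm10), and promoter windows are RefSeq GRCm38.p6. Levels per kilobase use merged exon length. Of the genes outside the 34, those named are the eIF2 kinases and up to 4 called genes per pathway list and stage with the smallest adjusted p, and marker lists are given as counts and ranges. The members and lists were chosen with earlier results of these data known. One gene of the further pathway lists is counted but not reported here by name.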

Additional observations from a re-analysis of the deposited data

Results flagged for a closer look

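Among groups of 4 or 5 libraries, 4 of the 89 member values checked had one library far from the others, where chance gives about 4.45. In large Pro-B cells, tet-LIN28B replicate 3 had 10959 normalised counts of Phgdh, the first enzyme of serine synthesis, and the other 4 tet-LIN28B libraries had 14635 to 16048. For the cationic amino acid carrier Slc7a1, tet-LIN28B replicate 4 of large Pro-B had 234 normalised counts, and the other 4 had 592 to 715, while control replicate 3 of the same stage had 333 and the other 3 controls had 482 to 504. In large Pre-B cells, tet-LIN28B replicate 3 had 3001 normalised counts of Shmt1, and the other 3 had 2298 to 2417.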

How the results depend on the processing

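With one library left out at a time, the count of small Pre-B members ranged over 5 to 14 higher and 0 to 2 lower, and that of genes in the further pathway lists over 6 to 12 higher and 3 to 7 lower. All-gene counts of these fits are not given beside them. The count of members with a difference between small Pre-B and large Pro-B ranged over 0 to 2. Under the other settings the small Pre-B members gave 10 to 11 higher and 1 lower. No call changed sign, no member was called in a large stage under any setting, and calls that were lost or gained with a library left out are given beside the members and pathway genes. Beyond these, Chac1 was lost with a pseudocount of 0.1 (adjusted p = 0.0537) and had no adjusted p in DESeq2, which added Trib3 (0.0142). All-gene counts differed by tool in the large stages: limma, edgeR and DESeq2 called 0, 0 and 4 large Pro-B genes, and 8, 0 and 79 large Pre-B genes. Rescaling to one total shifted the median log2 fold change of all genes by -0.11 in large Pre-B cells.

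Same-numbered libraries did not deviate together in every pair (large Pro-B correlations of 0.43, 0.14, -0.19 and 0.27; large Pre-B correlations of 0.16, 0.14 and -0.06; small Pre-B correlations of 0.02, -0.11 and -0.0043). With the replicate number as a block, 11 small Pre-B members were higher and 1 lower, and 8 genes of the further pathway lists were higher and 5 lower, with the calls of Eif2s1, Lamtor1, Tsc2 and Castor2 lost. Lamtor1 was also lost with no filter and with either rescaling, and Tsc2 with no filter. Chac1, Atf5 and Atf3 had no more than 34, 35 and 41 reads in any library, which limits their precision.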
